A study of Mus musculus with 2 samples.

Results

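FGF receptor 2 and 6 genes that respond to FGF signalling were followed in the developing lung epithelium: the receptor gene Fgfr2, the ETS transcription factor genes Etv4 and Etv5, the Sprouty genes Spry1, Spry2 and Spry4, and the phosphatase gene Dusp6. They were taken by symbol from the gene list of the control library, which holds all 7 among 31053 genes. The cells were FACS-purified epithelial cells of embryonic day 15 mouse lungs, run on 10x Chromium 3′ chemistry (version 2), which tags each captured RNA molecule with a unique molecular identifier (UMI). The series has 1 library of control genotype and 1 library of cells lacking LEF/TCF factors, the nuclear factors of Wnt signalling that the series is about. The labels give no alleles, Cre driver, sex or number of embryos for either. For the knockout library the barcode list was read and its expression was not analysed here, so every expression value below is from the control library. With 1 library there is no replicate spread and no test was made. Every interval given is a 95% interval of counting error alone.

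FGFR2 is the epithelial receptor for FGF10 and FGF7, which the lung mesenchyme makes, and this signal drives outgrowth and branching of the distal lung tips. The active receptor signals through RAS and ERK to the nucleus, where Etv4 and Etv5 are among the genes induced. Sprouty proteins and DUSP6 are induced too and damp the same pathway, Sprouty proteins upstream and DUSP6 by removing phosphate from ERK, so that their transcripts are used as readouts of the signal.

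Of the 31053 identifiers, 30934 occur in GENCODE M21 (GRCm38), 30468 with the same symbol. RefSeq places Fgfr2 (ENSMUSG00000030849) at chr7:130162451-130266808, Etv4 (ENSMUSG00000017724) at chr11:101769747-101785310, Etv5 (ENSMUSG00000013089) at chr16:22381313-22439570, and Spry2 at chr14:105891947-105896819, all on the minus strand. Spry1 lies at chr3:37639947-37644599 and Dusp6 (ENSMUSG00000019960) at chr10:99263231-99267489, both on the plus strand. In GENCODE M21 the span of the Fgfr2 gene reaches far upstream, to chr7:133123350, and overlaps 36 genes of the same strand. How UMIs in that stretch were assigned is not given in the sources used here.

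The promoters were read because these genes include both ETS factors and genes that ETS factors can bind. Windows from 250 bases before to 50 after a transcription start, from RefSeq on GRCm38.p6, were at hand for 5 of the 7 genes (6 windows), and none was used for Etv4 and Spry4. They were searched on both strands for CCGGAA and AGGAAG, short forms of the ETS core; the letter before GGAA differs, so no core counts under both. Of all 32851 windows, 14.9% hold the first, 35.4% the second and 45.2% either. Of the 6 windows here 4 hold either, and these belong to 4 of the 5 genes. The matches are shown for the genes whose levels are compared below, 5′ to 3′ on the gene's strand in 30 bases, with the matching letters (or their reverse complement) in capitals.
Etv5, chr16:22438350-22438379, minus strand, match 1 base after a start: acgacgacacaaAGGAAGtggtttaaactc
Dusp6, chr10:99263009-99263038, plus strand, match 210 bases before the start: ctcttctttctcCTTCCTcccgccgagccc
Spry2, chr14:105896770-105896799, minus strand, match 33 bases after the start: gaggtcatctatcCCGGAAtccgggagggt
Fgfr2, chr7:130266999-130267028, minus strand, match 208 bases before the start: ctttaagaaggcAGGAAGcactctgaactg
Fgfr2, chr7:130266759-130266788, minus strand, match 38 bases after the start: tacctattcacgtgttccCTTCCTaaagga
Spry1 and the window at the outer Etv5 start had no match. These are matches of letters in short windows, not measured binding sites, and their share among these genes is a description of 5 genes.

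The library held 3568 barcodes, of which 29 (0.813%) also occur in the knockout list of 5342. Cells with at least 1000 genes and at most 10% mitochondrial UMIs were kept, which left 3457 cells with a median of 12826 UMIs (range 2013 to 112424). Among these, 249 cells (7.20%) held both Xist at 4 or more UMIs and a UMI of a Y-linked gene, as droplets with cells of embryos of both sexes do, and their median was 30401 UMIs. Such cells are counted below beside each class. Cells with at least 5000 UMIs were sorted into 3 classes. The Sox2-positive airway class comprised 608 cells of the clusters in which Sox2, an airway transcription factor gene, was at least 2 times as high as in all other cells. The other epithelial clusters were Sox9-positive, Sox9 being a transcription factor gene of the distal tips, and held 2718 cells. No cluster had Ager, a gene of flat alveolar type 1 cells, at 2 times the level of the rest. The Ager-positive class was therefore the 150 cells of the Sox9-positive clusters with at least 2 Ager UMIs once each cell had been randomly thinned to 5000 UMIs, a threshold set after the data were seen, and 497 further cells held exactly 1. The remaining 2568 cells were the Sox9-positive distal class. The members and the other FGF pathway genes were kept out of the clustering.

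Levels of marker genes are given for each class. Sox9, Sox2 and Ager set the classes, so their differences follow from the class rules and check nothing. Sox9 was at 153 CPM (a gene's share of all UMIs of the class, per 1000000) in distal and 31.3 CPM in airway cells, and Sox2 was at 11.7 and 156 CPM. Sftpc, a surfactant protein gene of distal cells, was at 1553 CPM in distal and 115 CPM in airway cells. In Ager-positive cells Ager itself was at 243 CPM against 54.2 CPM in distal cells, but of 8 type 1 marker genes with enough UMIs only Ager and Rtkn2 (ratio 1.77, 1.22 to 2.51) had intervals above 1. Hopx (ratio 1.14, 0.559 to 2.09) did not, Pdpn was lower (ratio 0.807, 0.646 to 0.997), and Sftpc stayed at 1936 CPM, so these cells are called by their gate and not as type 1 cells. In the airway class 14 of 608 cells (2.30%) passed the same gate. Droplets with signs of both sexes made up 7.90% of distal, 5.26% of airway and 8.67% of Ager-positive cells. Median depths were 13801.5, 9345 and 13143 UMIs. A cluster of 43 mesenchymal-like cells (leading genes Acta2, Mfap4, Col1a2 and Col3a1, with Epcam at 7.67 CPM) served as a non-epithelial reference.

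Fgfr2 was present in every epithelial class. It was at 121 CPM (118 to 125, 5252 UMIs) in distal, 125 CPM (111 to 140, 298 UMIs) in Ager-positive and 88.1 CPM (81.5 to 95.2, 642 UMIs) in airway cells, and at 38.4 CPM (21.5 to 63.3, 15 UMIs) in mesenchymal-like cells. The distal and Ager-positive levels do not differ beyond counting error, airway cells lie below both, and mesenchymal-like cells lie below all 3. The receptor was thus 1.38 times as high (1.27 to 1.498) in distal as in airway cells. Over 22 alternatives this ratio was 1.05 to 1.59, and with at least 2000 genes per cell its interval held 1 (0.988 to 1.12). At 5000 UMIs per cell, 43.4% of distal cells (41.5 to 45.3%), 44.7% of Ager-positive cells (36.6 to 53.0%) and 30.3% of airway cells (26.6 to 34.1%) held an Fgfr2 UMI, against 15.4% of the 39 mesenchymal-like cells of that depth. Without thinning these shares were 74.2%, 74.0%, 52.1% and, over all 43 mesenchymal-like cells, 27.9%. The reads come from the 3′ end and do not tell apart the receptor's splice forms, among them the epithelial form that binds FGF10.

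Etv5 had the highest distal to airway ratio of the 6 genes with enough UMIs. It was at 230 CPM (226 to 235, 9955 UMIs) in distal, 189 CPM (172 to 207, 450 UMIs) in Ager-positive and 25.8 CPM (22.3 to 29.8, 188 UMIs) in airway cells, and at 25.6 CPM (12.3 to 47.0, 10 UMIs) in mesenchymal-like cells. Distal and Ager-positive cells stand apart from the other classes, and the airway and mesenchymal-like levels do not differ beyond counting error. After thinning, 66.0% of distal cells (64.2 to 67.9%) and 58.0% of Ager-positive cells (49.7 to 66.0%) held an Etv5 UMI, against 7.40% of airway cells (5.45 to 9.78%) and 7.69% of mesenchymal-like cells (1.62 to 20.9%). Unthinned, the shares were 89.99%, 84.0%, 14.5% and 11.6%. The airway share is not above that of the mesenchymal-like cells, but that share rests on 3 of 39 cells and has a wide interval. Whether the airway share is background was not tested. The ratio of distal to airway CPM was 8.92 (7.72 to 10.4).

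Most of the Etv5 UMIs in the airway class came from its deepest cells. In the 452 airway cells with at most 14000 UMIs Etv5 was at 8.65 CPM (5.99 to 12.1, 34 UMIs), and in the 156 deeper ones at 45.9 CPM (39.0 to 53.8, 154 UMIs). The deep airway cells also held more Sftpc (209 against 34.3 CPM) and more Sox9 (47.4 against 17.6 CPM), and 19.9% of them showed signs of both sexes against 0.221% of the others, a sign that needs several UMIs and so is seen more in deep cells. In distal cells the same limit divides 1322 from 1246 cells, of which 0.378% and 15.9% showed it, and Etv5 was at 242 and 225 CPM. With only cells of at most 14000 UMIs in these clusters, the distal to airway ratio of Etv5 was 28.0. It was 12.5 without cells showing signs of both sexes, 3.28 when cells needed 2000 genes and were clustered again, and 3.28 to 28.0 over 22 alternatives, above 1.5 in each. The direction held in all of them. The airway class held 608 cells here and up to 828 where only the clustering was changed. Airway Fgfr2 moved with depth as well, from 68.9 CPM (61.0 to 77.7) in the shallower to 111 CPM (99.7 to 123) in the deeper cells. Spry2 was at 27.7 CPM (22.8 to 33.4) and 35.8 CPM (29.7 to 42.8), with overlapping intervals. Airway Etv4 (2.80 and 2.68 CPM), Spry1 (37.4 and 41.5 CPM) and Dusp6 (31.5 and 31.9 CPM) did not differ between the 2 depths beyond counting error. The part of mixed droplets in the airway levels was not tested.

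Etv4, the close relative of Etv5, was highest in distal cells among the epithelial classes. It was at 10.3 CPM (9.36 to 11.3, 445 UMIs) in distal, 2.75 CPM (1.68 to 4.24, 20 UMIs) in airway and 3.36 CPM (1.45 to 6.62, 8 UMIs) in Ager-positive cells, and 4 UMIs in the mesenchymal-like cells gave 10.2 CPM (2.79 to 26.2). Distal cells were above airway and Ager-positive cells, which do not differ beyond counting error. The distal to airway ratio was 3.75 (2.40 to 6.20), and it lay between 2.66 and 4.78 over the alternatives. The share of cells with a UMI after thinning was 5.18% (4.35 to 6.11%) in distal, 1.64% (0.791 to 3.004%) in airway and 1.33% (0.162 to 4.73%) in Ager-positive cells, and 13.7%, 2.63% and 4.67% without thinning. None of the thinned shares exceeds the 10.3% (2.87 to 24.2%) of the 39 mesenchymal-like cells, in which Etv4 is not known to be absent.

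The feedback inhibitors differed less between classes. Spry2 was at 44.5 CPM (42.5 to 46.5, 1924 UMIs) in distal, 31.4 CPM (27.5 to 35.8, 229 UMIs) in airway and 30.6 CPM (24.0 to 38.5, 73 UMIs) in Ager-positive cells. Dusp6 was at 41.3 CPM (39.4 to 43.2, 1784 UMIs), 31.7 CPM (27.8 to 36.1, 231 UMIs) and 30.2 CPM (23.6 to 38.1, 72 UMIs) in the same order. For both genes distal cells were above the other classes, and airway and Ager-positive cells did not differ beyond counting error. Spry1 was at 40.8 CPM (39.0 to 42.8, 1766 UMIs) in distal, 39.3 CPM (34.9 to 44.1, 286 UMIs) in airway and 33.2 CPM (26.2 to 41.3, 79 UMIs) in Ager-positive cells, and no neighbouring pair of these differs beyond counting error. The distal to airway ratios were 1.42 (1.23 to 1.63) for Spry2, 1.30 (1.13 to 1.499) for Dusp6 and 1.04 (0.918 to 1.18) for Spry1. In mesenchymal-like cells, 3 to 5 UMIs of each gave 7.67 to 12.8 CPM.

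After thinning, a Spry1 UMI was seen in 18.6% of distal, 16.9% of airway and 12.0% of Ager-positive cells. For Spry2 the shares were 15.8%, 12.8% and 9.33%, and for Dusp6 17.3%, 11.8% and 12.0%. Mesenchymal-like cells gave 2.56% for each Sprouty gene and 7.69% for Dusp6. Unthinned, the distal and airway shares were 41.8% and 32.7% for Spry1, 34.3% and 21.4% for Spry2, and 39.1% and 26.0% for Dusp6.

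Spry4, the remaining Sprouty gene, was all but undetected, with 5 UMIs in 5 distal cells (0.116 CPM, 0.0375 to 0.270) and none elsewhere. A count of 0 allows up to 0.412 CPM in airway and 1.26 CPM in Ager-positive cells, and a share of up to 0.493% and 2% of cells with a UMI at 5000 UMIs per cell, which is no limit on cells that express the gene. No difference between classes was detectable at this depth.

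**Figure D1:**
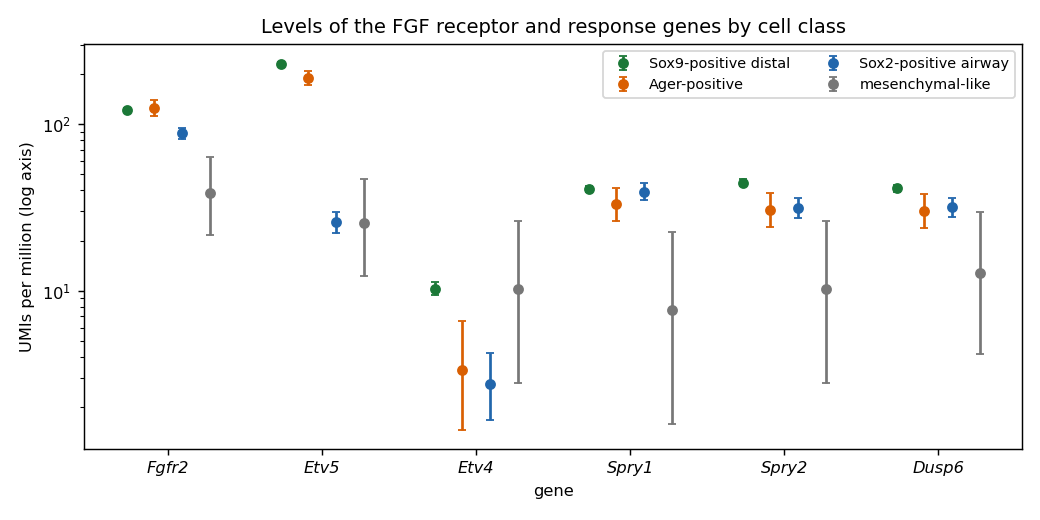
Level of 6 genes in 4 cell classes of the control library, in CPM on a log axis; points are class sums, bars are 95% Poisson intervals, and Spry4 with 5 UMIs is not drawn. Etv5 is the gene with the widest gap, 230 CPM in distal and 25.8 CPM in airway cells, while Spry1 lies at 40.8 and 39.3 CPM.

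Set against all genes, 2 of the 6 members with at least 50 UMIs over both classes (Etv4 and Etv5) were at least 1.5-fold higher in distal than in airway cells, where 7.85% of 11678 tested genes were. None was at least 1.5-fold lower, against 16.8% of all tested genes. The median ratio of the 6 was 1.40, and that of all tested genes 0.921. Spry2 sat close to the threshold and passed 1.5 in 13 of 22 alternatives, Fgfr2 passed it in 2 and Dusp6 in 1. With every cell weighted equally in place of summed UMIs, Fgfr2 was at 1.51 and Spry2 at 1.54, which made 4 genes.

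**Figure D2:**
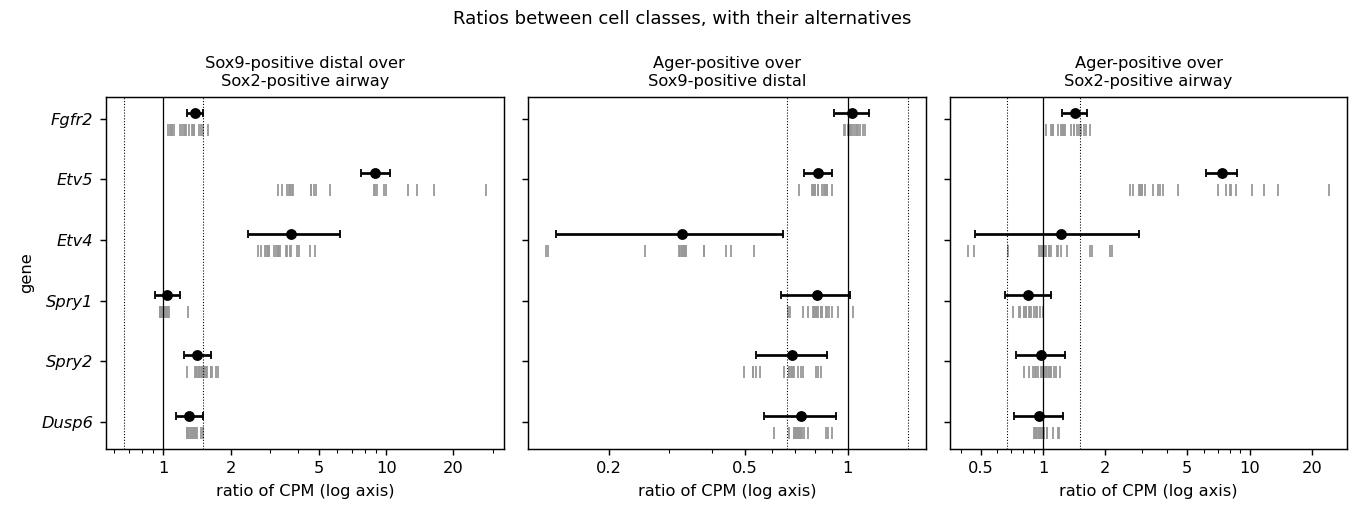
Ratio of CPM between pairs of classes on a log axis for 6 genes; black points with 95% intervals are the values in the text, grey ticks below them the alternatives, solid lines mark 1 and dotted lines the 1.5-fold threshold in each direction. The Etv5 ticks for distal over airway cells spread from 3.28 to 28.0, all to the right of the threshold.

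The response genes did not follow the receptor in equal measure. Per Fgfr2 UMI there were 1.90 Etv5 UMIs in distal, 1.51 in Ager-positive and 0.293 in airway cells. The distal to airway odds were 6.47 (5.60 to 7.52) for Etv5 and 2.72 (1.74 to 4.50) for Etv4. For Spry2 (1.03, 0.895 to 1.18) and Dusp6 (0.944, 0.823 to 1.09) the odds held 1, and for Spry1 they were below 1 (0.755, 0.666 to 0.858). With cells of at most 14000 UMIs in unchanged clusters, the odds were 17.6 (12.6 to 25.5) for Etv5. For Dusp6 they were 0.805 (0.662 to 0.987), now below 1. Airway cells thus held more Spry1 per Fgfr2 UMI (0.445) than distal cells (0.336).

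Ager-positive cells were close to distal cells in receptor and lower in response genes. The ratio of Ager-positive to distal CPM was 1.03 (0.913 to 1.16) for Fgfr2. It was 0.326 (0.140 to 0.648) for Etv4, 0.689 (0.537 to 0.870) for Spry2, 0.732 (0.570 to 0.927) for Dusp6 and 0.820 (0.745 to 0.902) for Etv5. For Spry1 it was 0.812 with an interval holding 1 (0.640 to 1.02). Of the 21 alternatives that give an interval, it lay below 1 in 21 for Etv4, 20 for Etv5, 19 for Spry2, 16 for Dusp6 and 6 for Spry1. The Dusp6 ratio was 0.607 to 0.901 over the alternatives. Of the 6 members, 1 (Etv4) was at least 1.5-fold lower, as were 7.42% of 11403 tested genes, and none was 1.5-fold higher, against 5.45%. The median of the 6 was 0.771, that of all tested genes 1.02.

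Per Fgfr2 UMI all 5 detected response genes were below the distal count in Ager-positive cells, with odds of 0.317 (0.136 to 0.630) for Etv4, 0.669 (0.522 to 0.845) for Spry2, 0.711 for Dusp6, 0.788 (0.621 to 0.988) for Spry1 and 0.797 (0.723 to 0.876) for Etv5. With cells of at most 14000 UMIs, the intervals of Spry1 (0.821, 0.536 to 1.21) and Dusp6 (0.707, 0.453 to 1.05) held 1, and the odds were 0.126 for Etv4. Of 7 distal markers in the same cells, 5 had intervals below 1, among them Sox9 (0.643, 0.562 to 0.733), Bmp4 (0.534, 0.419 to 0.670) and Id2 (0.668, 0.633 to 0.703), Mycn held 1 (0.970), and Sftpc was higher (1.25, 1.21 to 1.28). Scgb3a2, an airway secretory gene, was higher at 2.03 (1.56 to 2.62). The part of mixed droplets in this was not tested. The Etv4 ratio rests on 8 UMIs and lay between 0.131 and 0.531 over the alternatives. Its lowest value came from cells of at most 14000 UMIs, and its highest from a gate of 1 Ager UMI.

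Against airway cells, the Ager-positive cells had 7.32 times the Etv5 level (6.16 to 8.72) and 1.42 times that of Fgfr2 (1.23 to 1.63). The Fgfr2 ratio was 1.03 to 1.68 over the alternatives, and its interval lay above 1 in 14 of the 21 that give one. Spry1 (0.844), Spry2 (0.975) and Dusp6 (0.953) had intervals that held 1. Etv4, with 28 UMIs over both classes, was below the minimum for a call. Of the 5 members tested, 1 (Etv5) was at least 1.5-fold higher, against 6.82% of 8992 genes, and none was lower, against 15.4%. This comparison shares its cells with the other comparisons and adds no independent values.

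Among the Sox9-positive cells, the response genes were higher where Sox9 was. The 2718 cells were placed by their Sox9 UMIs after thinning: 1456 with 0, 758 with 1, 318 with 2 and 186 with 3 or more. These bins are ranges of a continuous count and not cell types. Spry2 went from 34.7 CPM in the lowest bin through 46.5 and 59.5 to 77.9 CPM in the highest, a ratio of 2.25 (1.93 to 2.60). Etv4 went from 8.31 through 9.51 and 13.8 to 18.1 CPM (ratio 2.18, 1.58 to 2.96). Dusp6 went from 33.9 through 42.5 and 57.6 to 58.1 CPM (ratio 1.71, 1.44 to 2.03). Each step was upward for these 3 genes, although the single steps of Etv4 and the last of Dusp6 had overlapping intervals.

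Spry1 (34.7, 44.3, 48.7 and 55.0 CPM) and Etv5 (210, 238, 264 and 267 CPM) had the same order with smaller ratios, 1.58 (1.33 to 1.88) and 1.27 (1.18 to 1.37). The receptor had the smallest ratio. Fgfr2 was at 118, 127, 118 and 129 CPM, with a ratio of 1.10 whose interval held 1 (0.981 to 1.22). Over 4 alternatives its ratio was 1.12 to 1.31, and in 3 of them the interval lay above 1. Bmp4, a growth factor gene of the distal tips, went from 41.7 to 123 CPM over the same bins.

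**Figure D3:**
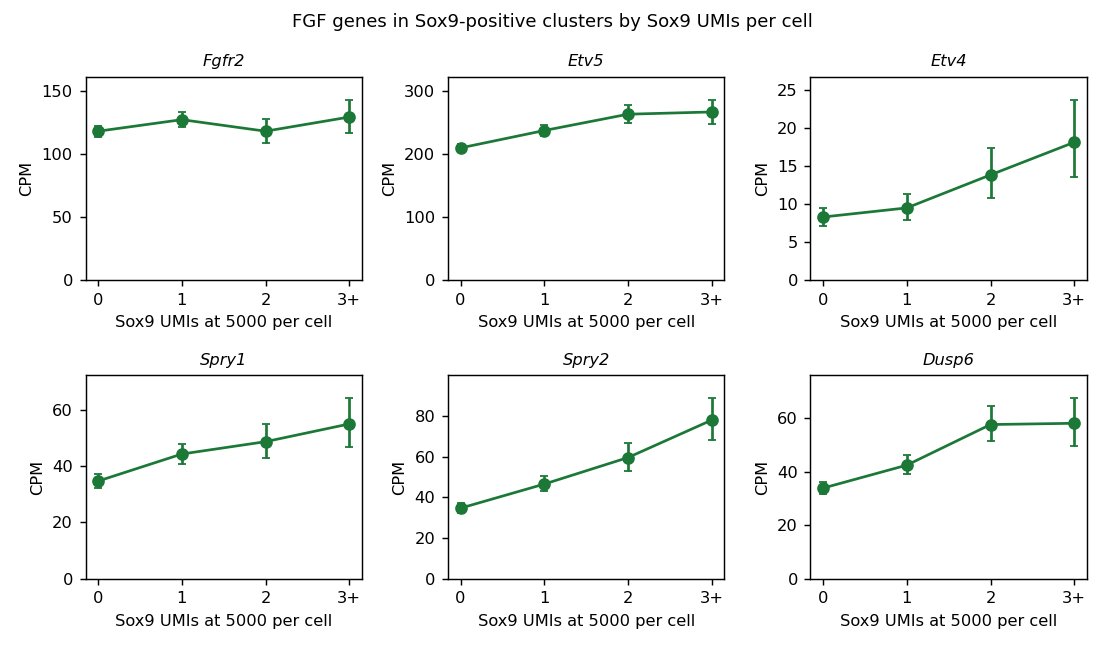
Level in CPM of 6 genes in Sox9-positive clusters by the number of Sox9 UMIs per cell after thinning to 5000 UMIs; points are sums over the cells of a bin, bars are 95% Poisson intervals. Spry2 goes from 34.7 to 77.9 CPM and Etv4 from 8.31 to 18.1 CPM, whereas Fgfr2 stays between 118 and 129 CPM.

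The highest and lowest cells were also compared inside clusters. In the 5 Sox9-positive clusters with at least 20 cells per bin, cells with 2 or more Sox9 UMIs were compared with those with 0. Etv4, Etv5, Spry1 and Spry2 were higher in 5 of 5 clusters and Dusp6 in 4 of 5, where the exception had a ratio of 0.996. The Spry2 ratios were 1.27 to 2.93, those of Etv4 1.09 to 3.36 and those of Etv5 1.07 to 1.39. Fgfr2 was higher in 2 of 5 (0.953 to 1.20). The middle bin, cells with 1 Sox9 UMI, did not always lie between: in cluster 4, for example, Etv5 was at 252, 305 and 270 CPM with 0, 1 and 2 or more. Among cells no deeper than 14000 UMIs, the ratio of the highest to the lowest Sox9 bin was 2.45 for Spry2, 2.77 for Etv4, 2.36 for Dusp6 and 1.31 for Fgfr2 (1.08 to 1.57).

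The cells were also ordered by other genes. By Ager UMIs (0, 1, 2, and 3 or more), Etv4 was at 11.2, 6.66, 4.03 and 1.55 CPM and Spry2 at 45.6, 40.1, 33.9 and 21.7 CPM, while Fgfr2 lay between 116 and 133 CPM. The Etv4 value rests on 7 UMIs (1.62 to 8.29 CPM) at 2 Ager UMIs and on 1 UMI (0.0393 to 8.65 CPM) at 3 or more. Spry1 also went down at each step (41.8, 37.1, 34.5 and 29.5 CPM). Etv5 (234, 216, 182 and 207 CPM) and Dusp6 (41.7, 39.6, 29.3 and 32.6 CPM) went down and then up in the last bin. Their last steps had overlapping intervals. The last of these bins holds 40 cells, and the gate of the Ager-positive class was set on the same UMIs. Between cells with 10 or more Sftpc UMIs and those with 0 or 1, Etv5 (1.25, 1.19 to 1.32) and Dusp6 (1.22, 1.07 to 1.39) were higher and Etv4 lower (0.744, 0.568 to 0.972). Between cells with 3 or more UMIs of the proliferation genes Mki67 and Top2a and those with none, the ratios were 1.21 (1.04 to 1.41) for Spry1, 1.15 (1.06 to 1.25) for Fgfr2 and 1.07 (1.01 to 1.14) for Etv5. Etv4, Spry2 and Dusp6 had intervals that held 1. The middle bin, cells with 1 to 2 UMIs of these proliferation genes, did not always lie between. There Etv4 was at 11.6 CPM (10.1 to 13.2) against 8.60 CPM (7.42 to 9.92) in cells with none. Dusp6 was at 45.4 CPM (42.4 to 48.5) against 37.3 CPM (34.8 to 39.9). Spry1 (46.5 CPM) and Etv5 (239 CPM) were also highest there, while Spry2 was at 43.9 against 43.8 CPM.

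The genes were distributed differently over the clusters, which are given by number. Cluster 1 (633 cells, Sox9 at 208 CPM, Bmp4 and Meg3 among its leading genes) had Spry2 at 86.0 CPM (79.4 to 93.1), and the other 4 large Sox9-positive clusters had it at 29.8 to 52.4 CPM. Cluster 4 (441 cells, led by Clu, Sftpb and Dlk1) had Dusp6 at 63.8 CPM (58.7 to 69.3) and Etv4 at 16.7 CPM (14.1 to 19.6), with Spry2 at 33.2 CPM (29.5 to 37.3). The 2 inhibitors thus had their highest levels in different clusters. In cluster 3 (525 cells) Dusp6 was at 18.3 CPM (15.0 to 22.2) and Spry1 at 28.0 CPM (23.9 to 32.8), below the airway cluster's 29.0 and 40.0 CPM, while its Etv5 was at 248 CPM (235 to 261).

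Cluster 0 (707 cells) differed from the rest in its droplets as well as its genes. Its Fgfr2 level of 139 CPM (133 to 144) did not differ beyond counting error from the 137 CPM of cluster 1. It had the lowest Etv5 (183 CPM, 177 to 190) and Etv4 (5.37 CPM, 4.35 to 6.57) of the 5 large Sox9-positive clusters. Its median depth was 21921 UMIs, 24.6% of its cells showed signs of both sexes, Ager was among its leading genes and Sox2 was at 26.2 CPM against 0.567 to 4.70 CPM in the other 4. Without it the distal to airway ratios were 9.99 for Etv5, 4.78 for Etv4, 1.63 for Spry2 and 1.25 for Fgfr2.

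**Figure D4:**
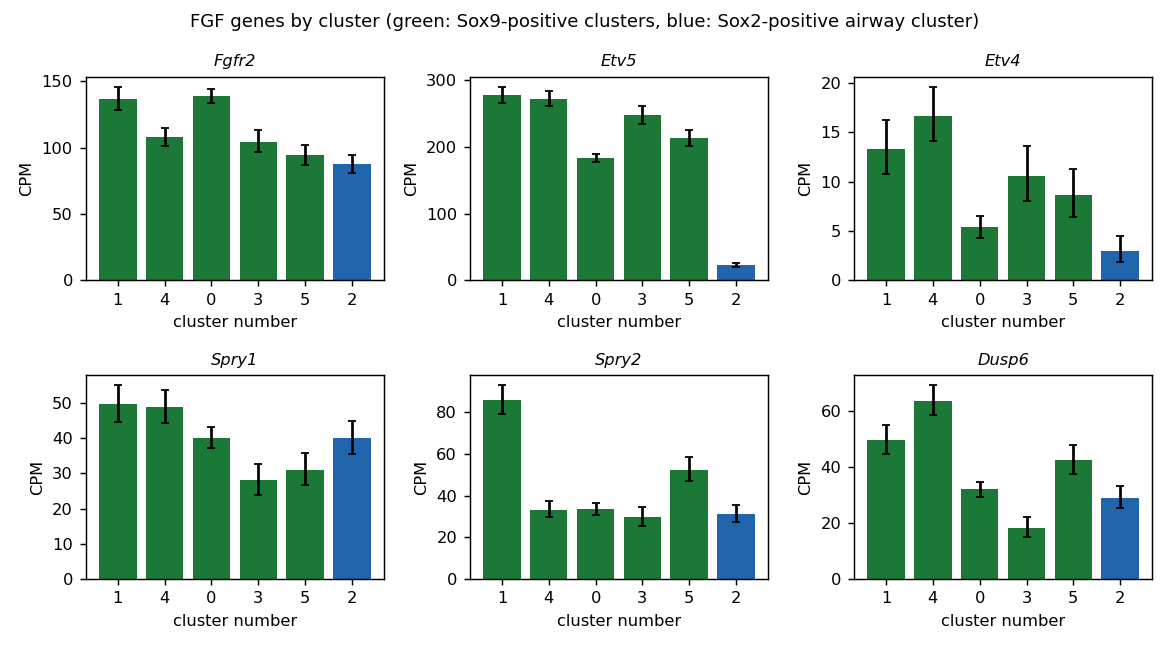
Level in CPM of 6 genes in the clusters with at least 100 cells, ordered by Sox9 level among the Sox9-positive ones (green), with the airway cluster last (blue); bars are cluster sums and whiskers 95% Poisson intervals. Spry2 stands out in cluster 1 at 86.0 CPM and Dusp6 in cluster 4 at 63.8 CPM, and Etv5 is lowest in the airway cluster at 23.1 CPM.

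From cell to cell within a class, few pairs of these genes were seen together more often than their shares give. Of 15 pairs of the 6 detected genes, 1 (Etv4 with Spry1, in 36 of 2718 cells or 1.32%, against 0.905% from the product of their shares) was seen together more often than the product in Sox9-positive cells, judged by the interval of the share. In airway cells it was also 1 pair, Fgfr2 with Etv5 (22 of 608 cells or 3.62%, against 2.24%). Pearson's r over cells lay between -0.041 and 0.045 in Sox9-positive cells and between -0.027 and 0.123 in airway cells. These values are given as a description, since sparse counts keep r low. The variance of thinned UMIs over their mean, which is 1 for counting noise alone, was 1.71 for Spry2 and 1.06 to 1.26 for Fgfr2, Etv4, Etv5, Spry1 and Dusp6 in distal cells.

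The genes most like the summed response genes over the 2568 distal cells, among 6558 genes seen in at least 5% of them, were Id2 (r = 0.274), Bex4 (0.220), Meg3 (0.202), Dlk1 (0.178) and Sox9 (0.175). Etv5 weighs most in this sum, with a mean of 1.18 thinned UMIs per distal cell against at most 0.222 for any other response gene. The median gene had an r of -0.001, and the cells share 1 library and were thinned to 1 depth. Etv5 against the sum of the others had an r of 0.065, and Fgfr2 one of 0.015. Over all epithelial cells the first 5 were Id2, Bex4, Dlk1, Sftpc and Sox9, with r between 0.247 and 0.333.

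Other genes of the pathway did not share 1 direction between distal and airway cells. Of the 4 other receptor genes with enough UMIs, Fgfr4 was higher in distal cells (7.61 against 2.20 CPM, ratio 3.46, 2.10 to 6.13) and Fgfr3 lower (12.6 against 25.9 CPM, ratio 0.485, 0.410 to 0.575). Fgfr1 held 1 (0.918, 0.764 to 1.11), and Fgfrl1, which lacks the kinase, was at 1.498 (1.17 to 1.94), just short of the threshold. Among 6 of 22 ligand genes with enough UMIs, 3 were at least 1.5-fold higher and 3 lower, against 7.85% and 16.8% of all tested genes. Fgf9, a ligand made by the epithelium and mesothelium, was higher (340 against 4 UMIs, ratio 14.3, 5.54 to 52.9), as was Fgf20 (105 against 2 UMIs, ratio 8.84, 2.39 to 74.0). Fgf13 (0.228, 0.188 to 0.277) and Fgf11 (0.321, 0.185 to 0.573), which are intracellular members of the family, were lower. Fgf10, the main ligand of FGFR2 in the distal lung, had no UMI in any epithelial class and 5 UMIs (12.8 CPM) in mesenchymal-like cells.

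Of 21 tested genes of the relay from receptor to ERK, none was at least 1.5-fold higher in distal cells and 2 were lower, near the shares of 7.85% and 16.8% over all genes. Of these 2, Frs3, an adaptor gene, had an interval outside 1 (0.526, 0.389 to 0.719). Of 12 feedback inhibitor genes beyond Spry1, Spry2 and Dusp6, 2 were higher, among them the ERK phosphatase gene Dusp9 (34.7 against 21.01 CPM, ratio 1.65, 1.40 to 1.97). The 4 lower ones included Lrig1 (0.237, 0.182 to 0.311) and Lrig3 (0.261, 0.186 to 0.370), genes of membrane proteins that restrain receptor tyrosine kinases. The list's median ratio without the members was 0.987.

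ETS factor and immediate early response genes split. Over all tested genes, 7.85% were at least 1.5-fold higher in distal than in airway cells and 16.8% lower. Beyond Etv4 and Etv5, 3 of 18 were at least 1.5-fold higher in distal cells and 6 lower, with a median of 0.926. Phlda1, singled out after its values were seen, was at 143 against 39.1 CPM (ratio 3.66, 3.25 to 4.13). The immediate early genes Egr2 (0.504, 0.410 to 0.624) and Fos (357 against 665 CPM, ratio 0.537, 0.520 to 0.554) were lower in distal cells. Of 16 heparan sulfate genes, which shape the binding of FGFs, 1 was higher, the sulfatase gene Sulf2 (ratio 3.14, 2.16 to 4.73), and 2 were lower, Sdc2 (0.537) and Gpc6 (0.638). Both counts are near the shares over all genes. Of 12 other receptor tyrosine kinase genes, Epha2 was higher (3.16, 2.08 to 5.03) and 4 were lower, among them Ret (0.252, 0.184 to 0.345) and Tyro3 (0.417, 0.343 to 0.508).

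**Figure D5:**
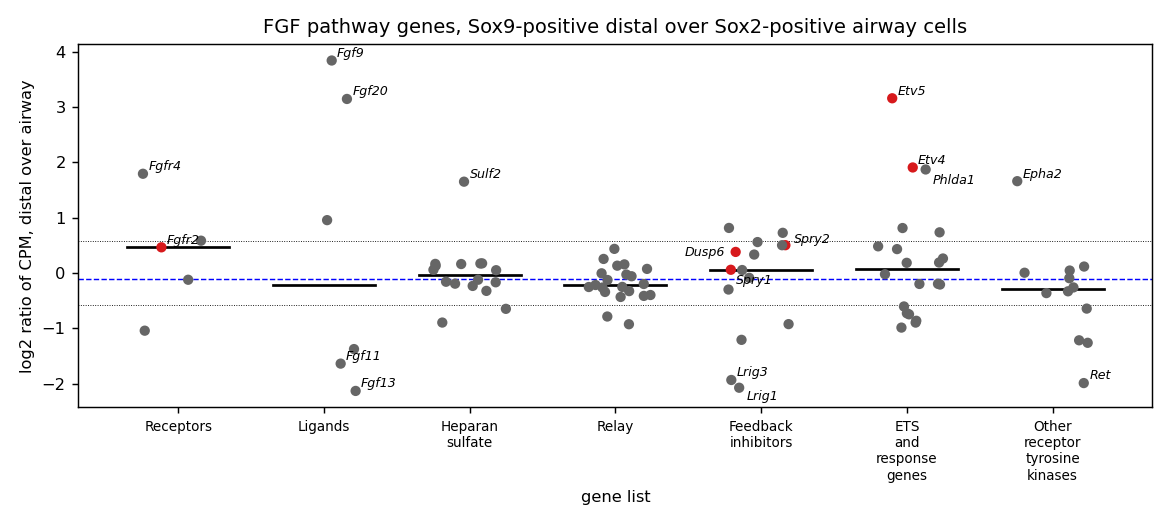
Log2 ratio of distal to airway CPM for each tested gene of 7 FGF pathway lists; red points are the genes followed here, black bars list medians, the dashed line the median of all tested genes, dotted lines the 1.5-fold threshold, and genes past 1.5 on this axis are named. Etv5 lies at 3.16 and Etv4 at 1.91, while the relay genes lie around their median of -0.22.

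Between Ager-positive and distal cells, none of the 5 receptor genes tested was 1.5-fold higher or lower. Of all 11403 tested genes, 5.45% were higher and 7.42% lower. Among the ligands Fgf9 was lower (8 against 340 UMIs, ratio 0.427, 0.183 to 0.851), and among the ETS factors Elk3 was lower beside Etv4 (0.373, 0.136 to 0.821). The Sprouty-related gene Spred1 was lower (0.664, 0.485 to 0.888), as was Sulf2 (0.571, 0.330 to 0.923). Flrt3 (1.82, 1.25 to 2.58), the adaptor gene Gab2 (2.64, 1.09 to 5.57, 8 UMIs) and the EGF receptor gene Egfr (2.07, 1.27 to 3.22) were higher.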

How the data were processed

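The deposited values are UMI counts, whole numbers for each gene in each barcode of the control library and not normalized, and the software version is 3.0.1, per the file headers. Cell Ranger, Seurat and build mm10 are named, without their roles, in the submitters' processing notes. How cell barcodes were told from empty ones is not given in the sources used here. The members and gene lists were chosen with earlier results of these data known.

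Barcodes with at least 1000 genes and at most 10% mitochondrial UMIs were kept (111 of 3568 removed). No doublet caller was run, and cells with at least 4 Xist UMIs and a Y-linked UMI were counted instead. For clustering, counts were set to 10000 per cell and logged. The 2000 genes of highest variability outside the FGF and cell-cycle lists gave 20 components and a graph over 20 neighbours, clustered by the Leiden method at resolution 0.5, seed 0 (scanpy 1.11.5, leidenalg 0.10.2, Python 3.11.15, scipy 1.17.1). This gave 9 clusters. A cluster was epithelial where 3 or more of the 5 pan-epithelial markers were at 25% or more of their CPM in the whole library. It was airway where Sox2 was at least 2 times the level of all other cells, and Sox9-positive where Sox9 was at least 1.5 times that of airway cells. The same rule for Ager found no cluster, so the gate on Ager UMIs was used. The 3 epithelial classes used cells with at least 5000 UMIs (3365 in the library, 92 are shallower), while mesenchymal-like levels and unthinned shares used all 43 cells of that cluster.

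Class sums carry exact Poisson, ratios exact conditional and shares Clopper-Pearson intervals, all at 95%. A count of 0 is given a limit of 3 counts. A gene was called at a 1.5-fold ratio with at least 50 UMIs over both classes. Cells were not used as replicates. Beside the members, the 2 genes with the highest and the 2 with the lowest ratio of each list were named where 1.5-fold with an interval outside 1. Alternatives covered clustering, cell and gene filters, depth, scaling and class rules. Those on the Ager gate, on leaving out a cluster and on clusters kept with fewer cells, like the split of airway cells by depth, were chosen after seeing the data. One small cluster is not reported on its own here.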

Additional observations from a re-analysis of the deposited data

How the results depend on the processing

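No ratio of a called gene changed direction under any alternative. The count of genes at least 1.5-fold higher in distal than airway cells (2) was 2 to 4 over 24 alternatives. It was within 1.5 times of 2 in 21 of them, a range that takes in a count of 3. Spry2 passed 1.5 in 13 of the 22 alternatives that give its ratio. The count was 4 with cells of at most 14000 UMIs in unchanged clusters, with a UMI gate for every class, and with cells weighted equally. The count lower in Ager-positive than distal cells (1) was unchanged in 18 of 24. It was 3 with the UMI gate and 2 with cells of at most 14000 UMIs (clustered again or not), with at most 5% mitochondrial UMIs, with cells weighted equally, and without the cluster of most UMIs per cell. The count higher in Ager-positive than airway cells (1) was unchanged in 19 of 24. It was 2 with cells of at most 14000 UMIs (clustered again or not), without cells showing signs of both sexes in unchanged clusters, with cells weighted equally, and with a gate of 1 Ager UMI. Fewer cells were used in several of these, and the cause was not tested.

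Etv5 in distal over airway cells was the least stable in size (3.28 to 28.0), and Etv5 in Ager-positive over airway cells went with it (2.62 to 24.4). Etv4 is limited by depth, with 8 UMIs in the Ager-positive and 20 in the airway class, and Spry4 with 5 UMIs in all could not be compared. No paired analysis was possible because there is 1 control library and no knockout expression was analysed here.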
